A study of Arabidopsis thaliana with 6 samples.

Results

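GH3.3, HAT2, LBD16, IAA30 and IAA18 are 5 Arabidopsis thaliana genes of the auxin response, followed here in suspension-cultured cells with and without isoxaben, a herbicide that blocks cellulose synthesis. The genes were chosen by the difference in their signals between isoxaben and control arrays, which was already known, and each is represented by its probe set, taken only where the platform annotation gives that probe set 1 gene. Each gene had 1 such probe set, so 5 genes were followed out of 13356 with a probe set of their own. Transcripts were measured on 6 Affymetrix ATH1 arrays. The 3 isoxaben arrays carry a treatment label of 0.1 mM isoxaben, and the 3 control arrays carry no treatment label. All cultures of both groups grew in Murashige and Skoog medium with 30 g/L sucrose, 0.5 mg/L of the synthetic auxin naphthalene acetic acid and 0.05 mg/L kinetin, a cytokinin, so the control cells received auxin as well. The labels give no ecotype or genotype, no solvent, and no length of exposure to isoxaben. They also do not say whether replicates were separate cultures, so the spread between arrays may be technical.

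Auxin acts by bringing receptors of the TIR1/AFB group together with Aux/IAA proteins, repressors that are then degraded. Auxin response factors, which the Aux/IAA proteins hold in check, can then switch on early target genes, among them members of the GH3, SAUR and Aux/IAA families themselves. GH3 enzymes attach amino acids to auxin and so take it out of the active pool, and the Aux/IAA proteins restrain the response, so both families belong to the negative feedback of the pathway. In cultured tissue, auxin together with cytokinin maintains division and callus-like growth, and LBD16 is among the factors known to act in callus formation and in the start of lateral roots.

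Signals are linear intensities that the authors had already scaled, with a mean of 100.006 to 100.008 on every array after 2% of values were trimmed at each end. A probe set entered the statistical fit if its mean log2(signal + 16) over the 6 arrays reached the 40th percentile, which corresponds to a signal of 22.1 (the filter signal). There are no detection calls, so signals under it are described as dim rather than absent. All 5 genes passed, but GH3.3, LBD16 and IAA30 had a control mean below the filter, and passed through their isoxaben arrays. Correlations across probe sets were 0.956 to 0.992 between arrays of the same group and 0.745 to 0.773 between arrays of different groups. Isoxaben replicate 1 carries the code DCB in its source name although its title and treatment label say isoxaben. Control replicate 1 had 7023 outlier cells among its 506944 array cells per the labels, against 160 to 613 on the other 5 arrays. These arrays form the first title set (1 isoxaben and 1 control array), and the other 4 form the second (2 of each group), so results are also given by set and without each of them.

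GH3.3 (AT2G23170), an enzyme that conjugates auxin to amino acids, separated the groups most. Its signal was 747.3, 752.4 and 784.4 on the isoxaben arrays, against 2.5, 1.0 and 0.8 on the control arrays. Every isoxaben array was bright and every control array was dim, and the nearest arrays of the groups lay 744.8 signal units apart. The isoxaben mean of 761 ± 20.1 (SD, n = 3) was 34.4 times the filter signal, while the control mean was 1.43 ± 0.93 (SD, n = 3), far below it. A ratio to so dim a mean has no reliable size, so the change is given as a difference on the log2(signal + 16) scale, 5.48 ± 0.11 (SE), which understates the change of dim genes. Of all 13648 tested probe sets, 1 had a larger rise than GH3.3 on this scale. The isoxaben arrays differed little from each other, with a coefficient of variation of 2.64%.

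IAA30 (AT3G62100) belongs to the Aux/IAA members that lack the degron through which auxin receptors bind the canonical repressors. Its signal was 45.0, 68.8 and 58.8 on the isoxaben arrays, against 6.2, 10.4 and 11.9 on the control arrays. Each isoxaben array lay above the filter signal and each control array below it, without overlap. The means were 57.5 ± 12.0 in isoxaben and 9.50 ± 2.95 in control cultures (SD, n = 3 each), a log2 difference of 1.52 ± 0.18 (SE). IAA30 was the most variable of the 5 genes among the isoxaben arrays, with a coefficient of variation of 20.8%, and the isoxaben array with the DCB code was the lowest of the 3.

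IAA18 (AT1G51950), an Aux/IAA repressor whose stabilised forms are known to reduce lateral root formation, was lower with isoxaben, alone among the 5 genes. Its signal was 90.2, 80.8 and 91.4 on the isoxaben arrays, against 221.5, 187.4 and 164.8 on the control arrays. All 6 values were well above the filter signal, so this difference was measured on both sides. The isoxaben mean of 87.5 ± 5.80 was 45.7% of the control mean of 191 ± 28.5 (SD, n = 3 each), a log2 difference of -0.99 ± 0.13 (SE). The groups did not overlap, and the gap between their nearest arrays was 73.4 signal units. The 2 Aux/IAA genes followed here thus differed in opposite directions.

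HAT2 (AT5G47370), a homeodomain-leucine zipper factor of class II known as an early auxin-induced gene, had signals of 613.4, 665.7 and 675.4 on the isoxaben arrays and of 51.7, 38.6 and 48.5 on the control arrays. Unlike GH3.3, it was above the filter signal on every control array, so both groups gave a measured level. The isoxaben mean of 652 ± 33.4 was 14.1 times the control mean of 46.3 ± 6.83 (SD, n = 3 each), and the log2 difference was 3.43 ± 0.12 (SE). HAT2 took rank 14 among the rises of all tested probe sets.

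LBD16 (AT2G42430), a lateral organ boundaries domain factor that acts downstream of auxin response factors, had signals of 87.8, 92.0 and 76.5 on the isoxaben arrays and of 18.2, 19.7 and 25.4 on the control arrays. The control values straddled the filter signal, with 1 array above it, so no ratio is given. The means were 85.4 ± 8.02 in isoxaben and 21.1 ± 3.80 in control cultures (SD, n = 3 each), a log2 difference of 1.45 ± 0.14 (SE). LBD16 and IAA30 had nearly the same log2 difference, and their order turned with the pseudocount: with 64 in place of 16, LBD16 changed by 0.81 and IAA30 by 0.72.

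**Figure D1:**
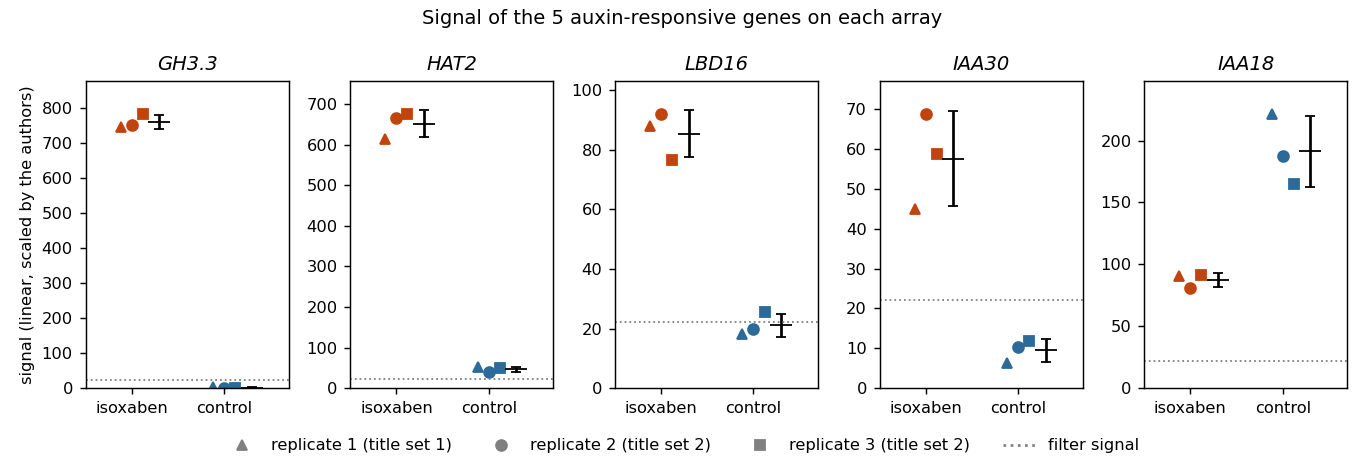
Signal of each gene (linear vertical axis, scaled by the authors, a separate scale per panel) on the 3 isoxaben and 3 control arrays, with marker shapes for replicates and black bars for the mean ± SD of each group. In every panel the groups are apart, with GH3.3, HAT2, LBD16 and IAA30 higher and IAA18 lower in isoxaben cultures. The dotted line is the filter signal of 22.1.

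The groups did not overlap for 5 of these 5 genes, of which 4 were higher and 1 lower. The groups also did not overlap for 63.2% of the 13648 tested probe sets, and limma called 56.6% of them at a Benjamini-Hochberg adjusted p under 0.05. Because the genes were picked for this contrast, nothing is read from that count and no test is given for them. Over all tested probe sets the quartiles of the log2 difference were -0.44 and 0.49, and the 99th percentile was 2.39, which GH3.3 and HAT2 exceeded. Rises larger than those of IAA30 and LBD16 were seen for 4.67% and 5.25% of tested probe sets, and falls larger than that of IAA18 for 10.0%. The 5 genes thus lay at different distances from the centre of the distribution, from its far tail to its shoulders. In RNA from whole cultures, fewer cells of a type and less RNA per cell cannot be told apart.

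**Figure D2:**
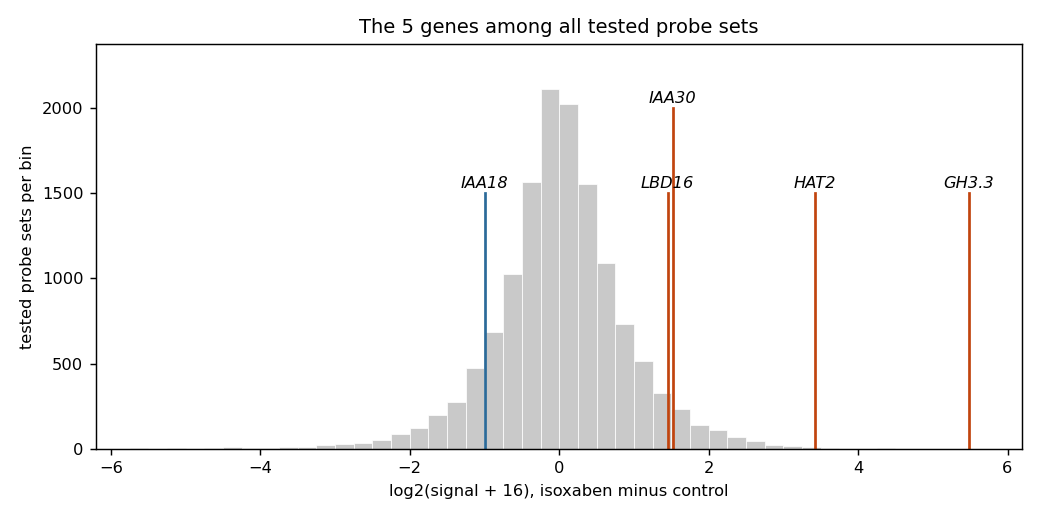
Histogram of the log2(signal + 16) difference, isoxaben minus control, over the 13648 tested probe sets (vertical axis, probe sets per bin), with a line at each of the 5 genes. The height of a line carries no value. GH3.3 at 5.48 and HAT2 at 3.43 lie in the far right tail, LBD16 and IAA30 side by side near 1.5, and IAA18 at -0.99 on the left shoulder.

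Both title sets had to give the same direction for each gene, because the groups did not overlap, so only the sizes are informative. In the first set, with 1 isoxaben and 1 control array, the log2 differences were 5.37 for GH3.3, 3.22 for HAT2, 1.60 for LBD16, 1.46 for IAA30 and -1.16 for IAA18. In the second set, with 2 arrays of each group, they were 5.54, 3.53, 1.38, 1.55 and -0.91 in the same order of genes. Over all 9 pairs of an isoxaben with a control array, the widest range was that of IAA30, from 1.13 to 1.93. The narrowest was that of GH3.3, from 5.37 to 5.57, but its width depends on the pseudocount because its control signals were dim. With a pseudocount of 1, GH3.3 differed by 7.74 in the first title set and by 8.66 in the second. The other differences given here are with the usual pseudocount. Without isoxaben replicate 1, the array with the DCB code, the differences were 5.49 for GH3.3, 3.47 for HAT2, 1.43 for LBD16, 1.65 for IAA30 and -1.01 for IAA18. Without control replicate 1, the array with many outlier cells, they were 5.52, 3.49, 1.40, 1.42 and -0.89 in that order.

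**Figure D3:**
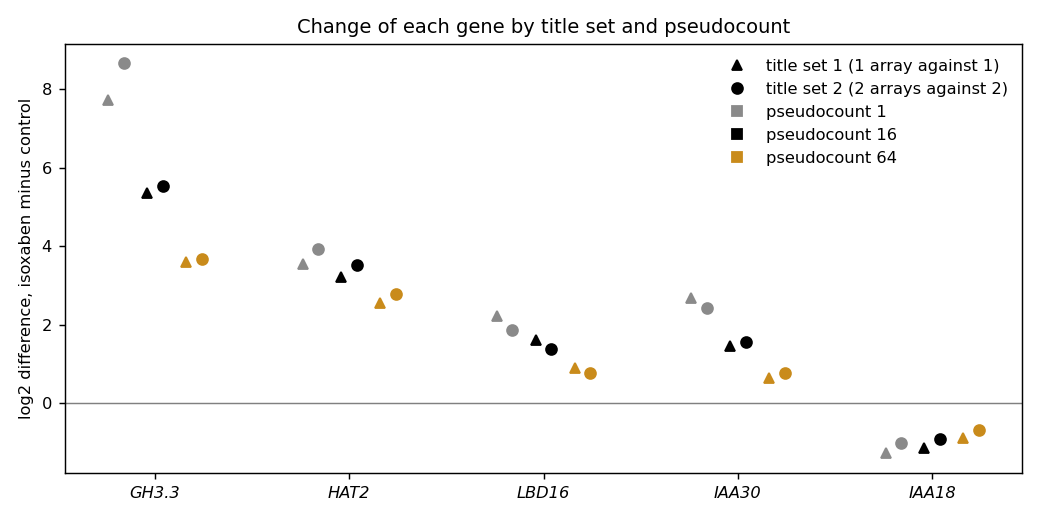
Log2 difference, isoxaben minus control (vertical axis), of each gene in title set 1 (triangles) and title set 2 (circles), with pseudocounts of 1, 16 and 64 added to the signal before the logarithm (colours). Direction is the same at all points of a gene, as it must be where the groups do not overlap. The size for GH3.3 moves most with the pseudocount, between 3.66 and 8.36 over all arrays, because its control signals are close to 0.

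The other genes of the pathway were taken from 11 lists drawn up by family and function. Only 23 of their 259 genes had a probe set of exactly 1 gene in the annotation used here, and 18 of these are not among the 5 genes above. The receptors and their ubiquitin ligase (12 genes), auxin response factors and corepressors (17), transporters (20) and SAUR genes (80) had none, and are not analysed here. Of the 18, 13 had all 6 signals below the filter signal and 5 were tested. Of those 5, limma called 1 higher and 0 lower (Benjamini-Hochberg adjusted p under 0.05), where 29.4% of all tested probe sets were called higher and 27.2% lower. At an unadjusted limma p under 0.05 the count of lower genes was also 0. The median log2 difference was 0.05 over all 18 genes and -0.20 over the 5 tested, against 0.01 over all tested probe sets.

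Among GH3 enzymes, the called gene was GH3.17, which favours glutamate as the amino acid it joins to auxin. Its signal was 42.1, 49.1 and 53.8 on the isoxaben arrays, against 13.2, 16.4 and 21.2 on the control arrays, so the control arrays were below the filter signal and the groups did not overlap. GH3.17 thus passed the filter through its isoxaben arrays, where it was high. With no filter it was also called (limma, Benjamini-Hochberg adjusted p = 0.00261), where 18.1% of all probe sets were called higher. With the filter, the log2 difference was 0.97 ± 0.16 (SE; limma, Benjamini-Hochberg adjusted p = 0.000497). It was 0.99 in the first title set and 0.96 in the second. WES1, also known as GH3.5, did not pass: its signals were 35.1, 42.4 and 43.6 with isoxaben and 40.7, 24.2 and 35.9 in control cultures (log2 difference 0.20 ± 0.17, limma adjusted p = 0.343). Its difference was -0.15 in the first title set and 0.37 in the second, and it was 0.05 without control replicate 2 and 0.30 without control replicate 1. GH3.1 (0.7 to 1.3 with isoxaben, 0.4 to 1.9 in control) and GH3.9 (12.0 to 17.6 with isoxaben, 9.6 to 11.0 in control) were dim in both groups. GH3.3 was thus bright with isoxaben while GH3.1, also known as an auxin-induced enzyme of the family, stayed near 0 on all 6 arrays.

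The 5 further Aux/IAA genes with a probe set, IAA20, IAA29, IAA31, IAA33 and IAA34, were all below the filter signal on every array, and so were left out of the fit. IAA20, which like IAA30 lacks the canonical degron, had 10.3, 14.6 and 10.4 on the isoxaben arrays and 2.8, 2.3 and 5.7 on the control arrays. These values did not overlap but were all dim, and with no filter the log2 difference of 0.50 passed (limma, Benjamini-Hochberg adjusted p = 0.00961), where 18.1% of all probe sets were called higher without a filter. The other 4 overlapped between the groups, with log2 differences between -0.25 for IAA34 and 0.09 for IAA31. LBD29, which acts with LBD16 in lateral root formation, had 1.6 to 4.1 with isoxaben and 1.1 to 4.1 in control cultures. No other class II homeodomain-leucine zipper gene had a probe set of 1 gene here.

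None of the tested genes on the lists for auxin synthesis, release and inactivation outside the GH3 family (YUC2 and AT1G14130) was called. YUC2, a flavin monooxygenase of auxin synthesis, had 27.8, 39.1 and 36.0 with isoxaben and 57.7, 27.5 and 44.3 in control cultures (log2 difference -0.21 ± 0.20, limma adjusted p = 0.411). The difference was -0.75 in the first title set and 0.06 in the second. YUC4 and YUC6 were dim in both groups. The locus AT1G14130, from the list of genes for auxin release and inactivation, had 97.0, 107.6 and 89.6 with isoxaben and 84.5, 126.2 and 139.6 in control cultures. Its log2 difference of -0.20 ± 0.17 did not pass (limma adjusted p = 0.345), but without control replicate 1 it was -0.39 and passed (limma adjusted p = 0.0148). The glycosyltransferases UGT84B1 and UGT74D1, which can attach glucose to auxin, were dim on all arrays. PUCHI, a factor of lateral root primordia, had 14.3, 21.0 and 20.1 with isoxaben and 75.2, 19.2 and 17.7 in control cultures. Only control replicate 1, the array with many outlier cells, was above the filter signal, and the log2 difference of -0.47 ± 0.34 did not pass (limma adjusted p = 0.264). Within the second title set, which leaves that array out, it was 0.09, and PUCHI no longer passed the filter. Of 18 genes on a list for cytokinin response, only 2 had a probe set of 1 gene and 0 were tested. These 2, the type-A response regulators ARR15 and RR16, are early targets of cytokinin. They were at 0.2 to 12.6 with isoxaben and 1.1 to 9.0 in control cultures, dim throughout.

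**Figure D4:**
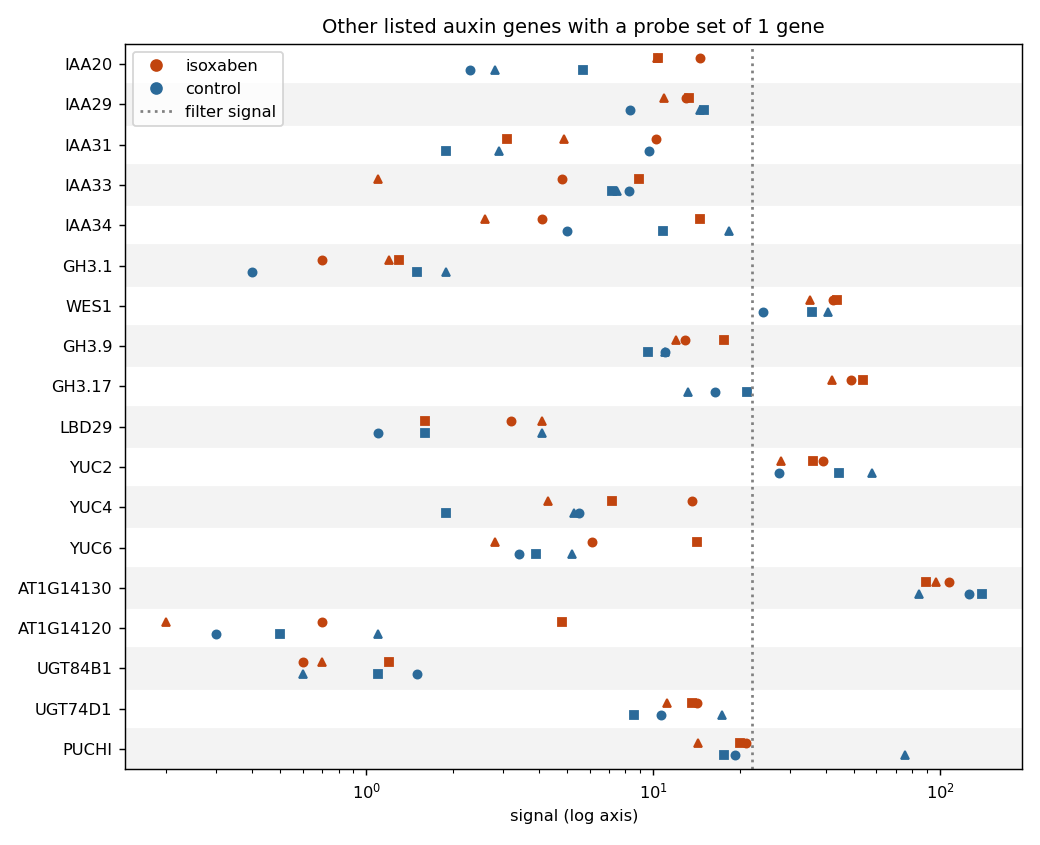
Signals (log horizontal axis) of the 18 other listed auxin genes, with the 3 isoxaben arrays above the 3 control arrays in each row and marker shapes for replicate 1 (triangle), 2 (circle) and 3 (square). Of the 18, 13 lie wholly left of the filter signal of 22.1 (dotted line). GH3.17 has all isoxaben arrays right of the line and all control arrays left of it.

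The labels name the material only as a cell suspension. Of 38 markers on 5 lists (dividing, photosynthetic, xylem vessel, root hair, and embryo or seed cells), 3 had a probe set of their own here. These were 1 photosynthetic and 2 root hair genes, and the dividing, xylem vessel and embryo or seed lists had none. Their summed signal, which mixes cell types, was 124.4 to 206.7 with isoxaben and 74.5 to 118.5 in control cultures. Most of it was RCA, the activase of the carbon-fixing enzyme Rubisco in green cells. RCA was higher with isoxaben by 0.82 ± 0.21 (SE) on the log2 scale (limma adjusted p = 0.00802), where 29.4% of all tested probe sets were called higher. The root hair genes EXPA7 and EXPA18 were below the filter signal on all arrays. EXPA7 had 14.8 to 18.4 with isoxaben and 11.0 to 17.9 in control cultures, with overlap. With no filter its log2 difference of 0.14 did not pass (limma adjusted p = 0.528). EXPA18 had 7.0 to 10.2 with isoxaben and 2.6 to 5.0 in control cultures, without overlap. With no filter its log2 difference of 0.31 passed (limma adjusted p = 0.0369), where 18.1% of all probe sets were called higher. The part of such cells in the results above was not tested.

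The likeness of profiles was measured as the root mean square difference between log2(signal + 16) values over the 6 arrays, each profile less its own mean, among 1047 tested probe sets with a gene name other than a locus. Near matches mostly share the size of the difference between the groups, since that difference makes up most of each profile. GH3.3 had a single close match among the named probe sets, LCR69, a small cysteine-rich protein, at 0.21. The next, HAT2, was at 1.03. Where control signals are dim, such distances depend on the pseudocount of 16, and they were not computed with another. The control mean was 1.43 for GH3.3 but 55.3 for LCR69, and 9.50 for IAA30 but 39.7 for its closest match. Of the named probe sets, HAT2 was closest to 3xHMG-box2, whose product binds mitotic chromosomes (0.23), TBL36 (0.27) and DI21 (0.32). LBD16 was closest to AUR2, an Aurora kinase of dividing cells (0.08), then PCN (0.09) and GH9C2, a member of an endoglucanase family (0.11). IAA30 was closest to AQI (0.05), psbK, a photosystem II gene of the plastid (0.10), and PPR596 (0.12). IAA18 was closest to PCME (0.03), CLE41, a peptide signal of vascular tissue (0.09), and JAL34 (0.09). Within a distance of 0.2 lay 52 named probe sets for IAA18, 32 for LBD16, 17 for IAA30, and 0 for GH3.3 and HAT2. Among tested probe sets of any name, 17 lay closer to HAT2 than 3xHMG-box2 did, and 12 closer to GH3.3 than HAT2 did. Another 5 lay closer to LBD16 than AUR2 did, and 0 closer than the first match of GH3.3, IAA30 or IAA18.

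**Figure D5:**
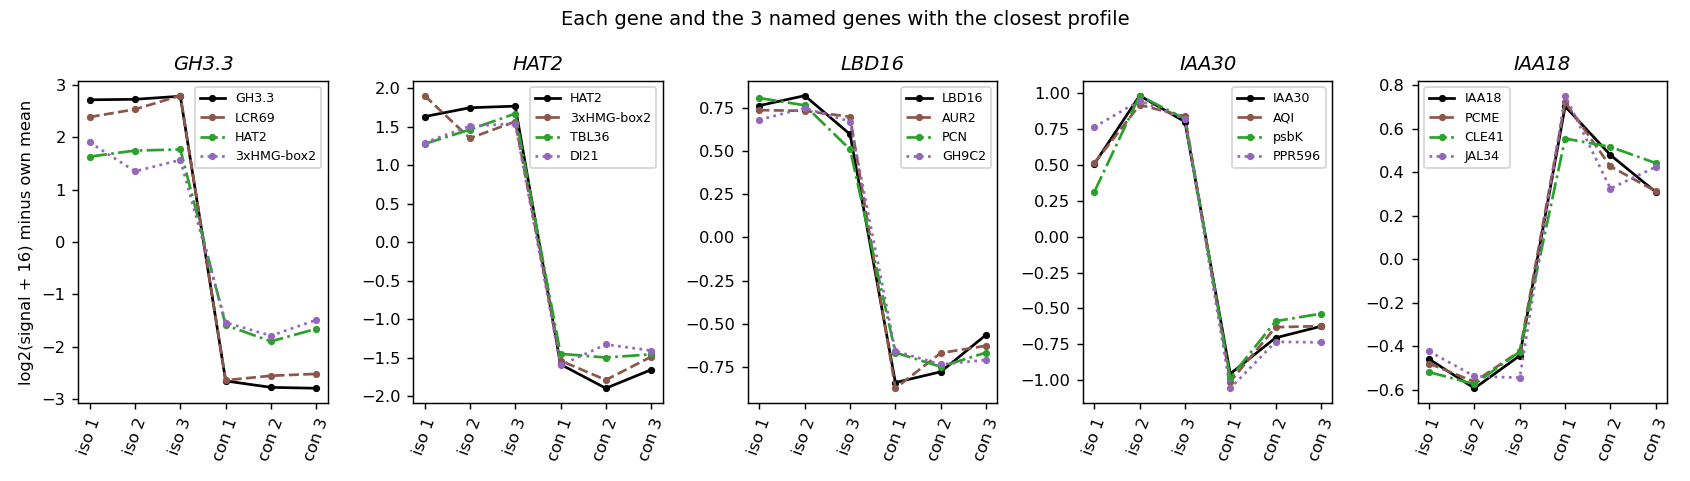
Log2(signal + 16) of each gene (black) and of its 3 closest named genes, less the mean of each profile (vertical axis), on isoxaben arrays 1 to 3 (iso) and control arrays 1 to 3 (con). For LBD16, IAA30 and IAA18 the 4 lines nearly coincide, at distances of at most 0.123. For GH3.3 only LCR69 follows closely, with the pseudocount of 16 used here.

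The genes next to the 5 on their chromosomes, by the order of protein-coding genes in RefSeq's TAIR10.1 table, were also looked up. Of 10 neighbours, 5 had a probe set of their own and 2 of these passed the filter. AT3G62110, beside IAA30, had a mean of 55.3 in isoxaben and 23.4 in control cultures, a rise of 0.86 ± 0.16 on the log2 scale (limma adjusted p = 0.00115). AT5G47360, beside HAT2, had a mean of 78.1 in isoxaben and 104 in control cultures and did not pass (-0.32 ± 0.22, limma adjusted p = 0.244), though it was lower without control replicate 1 (-0.58, limma adjusted p = 0.00678). The neighbours of GH3.3 and IAA18 that had a probe set, AT2G23160 and IQD27, were dim in both groups by their means, as was AT5G47380, beside HAT2. IQD27 had 6.1 to 13.9 with isoxaben and 14.1 to 17.3 in control cultures, without overlap, and was left out of the fit. The groups also did not overlap for 63.2% of tested probe sets.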

How the data were processed

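Biotin-labelled cRNA from total RNA was hybridised to 1-colour arrays, per the labels' protocols. The authors deposited 1 linear signal intensity per probe set, already scaled. The sources used here do not name the algorithm. Groups and title sets come from the titles, and arrays without a number were numbered 1. The number of arrays limits the precision. The 5 genes and all lists were chosen with earlier results of these data known.

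Without the 64 control probe sets, log2(signal + 16) was fitted with limma 3.58.1 in R 4.3.3 (lmFit, eBayes with trend, two-sided, 3 isoxaben against 3 control arrays, Benjamini-Hochberg over 13648 probe sets). The fit was tested on simulated data in which few probe sets changed and arrays deviated independently. These data differ in both respects, so that test does not bear on the calls made here. Of 22746 probe sets, 13513 have 1 gene, 503 several and 8730 none in the annotation, and 13436 names were updated through gene IDs with RefSeq's TAIR10.1 table. Close paralogs can bind each other's probes. Named were the 5 genes, all listed genes of their families with a probe set, up to 4 tested genes per list with the smallest p, and the 3 nearest profiles per gene. Neighbours and others were chosen after values were seen. Same-numbered arrays deviated together (correlations 0.207, 0.110 and 0.128), but so did differently numbered arrays of the second title set (0.118 and 0.101). Alternatives were other scalings, pseudocounts, filters and variance models, array weights, blocks, the second title set by itself, and fits without each array in turn.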

Additional observations from a re-analysis of the deposited data

How the results depend on the processing

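Because their groups did not overlap, subsets of arrays and other pseudocounts could not turn the direction of any of the 5 genes. Under the other alternatives in which it could be computed, the log2 difference of each gene kept its direction too. With a pseudocount of 1 it was 8.36 for GH3.3, 3.80 for HAT2, 1.98 for LBD16 and 2.50 for IAA30. With a pseudocount of 64 it was 3.66, 2.70, 0.81 and 0.72 in that order, and -0.75 for IAA18. LBD16 and IAA30 did not pass a filter at the 60th percentile, and IAA30 did not pass the usual filter without isoxaben replicate 2. The number of other auxin genes called higher was 2 with no filter and 0 with the 60th percentile filter, which left 1 of them to test. The number called lower was 1 with array weights, 1 in the second title set alone, and 0 to 1 when each array was left out. The 1 was AT1G14130, with log2 differences of -0.38, -0.38 and, without control replicate 1, -0.39. GH3.17 was called under every alternative that tested it, with a limma adjusted p of at most 0.00497. With the replicate block, 4250 probe sets were called higher and 3913 lower, against 4011 and 3715 without it, and no call among the other auxin genes changed. Each gene named from the lists has 1 probe set, so averaging probe sets changed nothing. Of the unfiltered calls, IAA20 rests on signals that are dim in both groups.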

Other observations

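IAGLU, annotated as an indole-3-acetate glucosyltransferase, was found by searching the annotation for the word indole and was chosen after its values were seen. Its signal averaged 52.4 ± 6.64 with isoxaben and 34.7 ± 4.91 in control cultures (SD, n = 3 each). The groups did not overlap, as for 63.2% of all tested probe sets. The log2 difference was 0.43 ± 0.14 (SE; limma adjusted p = 0.0260), where 29.4% of all tested probe sets were called higher. The limma call was lost with no filter (adjusted p = 0.0651), without isoxaben replicate 2 (0.114) and without control replicate 2 (0.0937). Over its alternatives the limma adjusted p ranged from 0.00359 to 0.114.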
